A study of Drosophila melanogaster with 2 samples.

Results

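The vacuolar ATPase genes are the genes whose symbols start with Vha, and 32 of the 13942 genes in the count tables met this rule. They were measured by droplet single-cell RNA sequencing of *Drosophila melanogaster* ovaries, in which each captured RNA molecule is counted once by a unique molecular identifier (UMI). The females had the genotype w1118(x);; (a white-eyed laboratory stock) and were kept with males, and their ovaries were taken at 6 weeks (aged) and at 1 week (young) after eclosion, 1 library for each age. Whole ovaries were dissociated without enrichment for their anterior parts, and no agent or allele separated the ages. With 1 library per age there was no replicate check, so no p-value was computed, and a difference between ages cannot be told apart from a difference between libraries.

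The vacuolar ATPase (V-ATPase) is a rotary proton pump. Its V1 sector, on the cytoplasmic side, hydrolyses ATP and turns a central stalk, and its V0 sector, in the membrane, carries protons through a rotating ring. In most cells the pump acidifies endosomes, lysosomes and secretory vesicles. In the principal cells of the Malpighian tubule, the renal organ of flies, it sits at high density in the apical membrane and drives fluid secretion, and in copper cells of the midgut it serves acid secretion. Several subunits are encoded by more than 1 gene in flies, so copies of a subunit can be used in different tissues.

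The 32 genes cover 14 subunits, of which 13 are core subunits and 1 is an accessory protein. V1 has 13 of the genes and V0, with the accessory subunit, has 19. There are 8 subunits with several copies and 6 with a single gene. By the BDGP6.54 annotation, 11 members lie on chromosome arm 3R, 8 on 2R, 6 on 2L, 5 on 3L and 2 on X. A few copies are neighbours. Vha68-2 (chr2L:12974322-12978607) ends 178 bases before Vha68-3 (chr2L:12978786-12981293) on the same strand, and Vha68-1 (chr2L:13000770-13004107) follows 19476 bases further on the other strand. Vha100-4 (chr3R:18386841-18389805) lies 517 bases downstream of Vha100-2 (chr3R:18390323-18399169) on the same strand. VhaM9.7-c overlaps Teh2 on the same strand, so reads of these genes may not be told apart, and Vha44, Vha100-1, Vha100-2, Vha100-4, Vha100-5 and VhaM9.7-c each overlap a gene on the other strand.

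The 6-week library had 20224 barcodes and 162985928 UMIs and the 1-week library 33317 barcodes and 147628511 UMIs. After filters on genes, UMIs and mitochondrial share, 9878 cells remained at 6 weeks and 9131 at 1 week, with medians of 12585.5 and 10639 UMIs per cell, and 26 cell barcodes occurred in both libraries. Cells were grouped without any Vha gene into 32 clusters. Of these, 23 took 1 of 10 class names from marker genes, written as X-like, and 9 are called here by their 2 leading genes. The label ovary was not met by every cell. Classes with gut markers (alphaTry, betaTry, mex1), Malpighian tubule markers (Uro, CapaR, Irk2) and enteroendocrine peptide genes (AstA, AstC, Tk) were present beside the follicle lineage, which is made of follicle stem cells and prefollicle cells (FSCs + pFCs), Early-Mid follicle cells (FCs) and Late FCs. Levels are given as CPM, the UMIs of a gene divided by all UMIs of the group of cells and multiplied by 1000000. A 3′ method gives 1 tag per molecule whatever the length, so levels of different Vha genes are set side by side without a length correction. Whether the genes were captured and their reads assigned equally well was not tested, which limits rankings of genes and shares of copies. All intervals are at 95% and cover counting error only.

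Members fell into 3 sets. A gene was called broadly detected when it reached 10 CPM at both ages in each of the 14 classes and clusters with at least 50 cells per library, and 15 genes did. Another 7 had at least 30 UMIs over both libraries but not this breadth, and are called restricted. The remaining 10 had fewer UMIs. Each of the 14 subunits had exactly 1 broadly detected gene, except subunit a, which had Vha100-2 and Vha100-1.

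In V1, Vha13, which encodes subunit G of the peripheral stalks, was the most abundant gene over all cells, with 487 CPM at 6 weeks and 522 CPM at 1 week. Vha26, its partner subunit E in these stalks, had 418 and 391 CPM. The ring that hydrolyses ATP was represented by Vha68-2 (catalytic subunit A), with 208 CPM at 6 weeks and 209 CPM at 1 week, and by Vha55 (subunit B), with 244 and 226 CPM. Vha36-1 (subunit D) had 216 and 228 CPM and Vha14-1 (subunit F) 209 and 219 CPM, and both belong to the central stalk. Vha44, subunit C, which joins the stalks to the membrane arm, had 237 and 213 CPM. VhaSFD, the regulatory subunit H, had 128 and 119 CPM. Among these 8 broadly detected V1 genes, those of the peripheral stalk were on top and VhaSFD was lowest at both ages.

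In V0, a single gene dominated. Vha16-1, which encodes subunit c, the proteolipid repeated around the rotor ring, had 2892 CPM at 6 weeks and 2789 CPM at 1 week and gave 47.7% and 47.3% of all Vha UMIs. VhaPPA1-1, the related ring subunit c'', had 234 and 217 CPM. VhaM9.7-b (subunit e, a small membrane protein) had 300.4 CPM at 6 weeks and 301 CPM at 1 week. VhaAC39-1 (subunit d, which couples the ring to the central stalk) had 141 and 121 CPM, and VhaAC45, the accessory subunit, had 202 and 186 CPM. The broad members of subunit a, the large membrane arm through which protons enter and leave, were lower. Vha100-2 had 108 CPM at 6 weeks and 113 CPM at 1 week, and Vha100-1 had 22.2 and 22.3 CPM.

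The restricted copies were rare over all cells. VhaM9.7-c had 11.1 CPM at 6 weeks and 13.2 CPM at 1 week, Vha68-1 3.03 and 2.48 CPM, Vha100-4 2.76 and 1.72 CPM, and Vha100-5 1.69 and 4.99 CPM. VhaM9.7-a (0.514 and 0.623 CPM), Vha68-3 (0.487 and 0.472 CPM) and Vha36-3 (0.122 and 0.126 CPM) were the lowest. Together the 7 genes gave 0.325% of the Vha UMIs at 6 weeks and 0.40% at 1 week. Among the 10 genes below 30 UMIs, 5 had none in the cells kept, namely Vha16-2, Vha16-3, Vha16-4, Vha36-2 and Vha100-3. Vha16-5 had 8 UMIs at 6 weeks and 7 at 1 week, VhaAC39-2 had 5 and 2, VhaPPA1-2 had 3 and 0, Vha14-2 had 1 and 0, and VhaM9.7-d had 0 and 1. All 7 UMIs of VhaAC39-2 came from the germ cell-like cells.

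**Figure D1:**
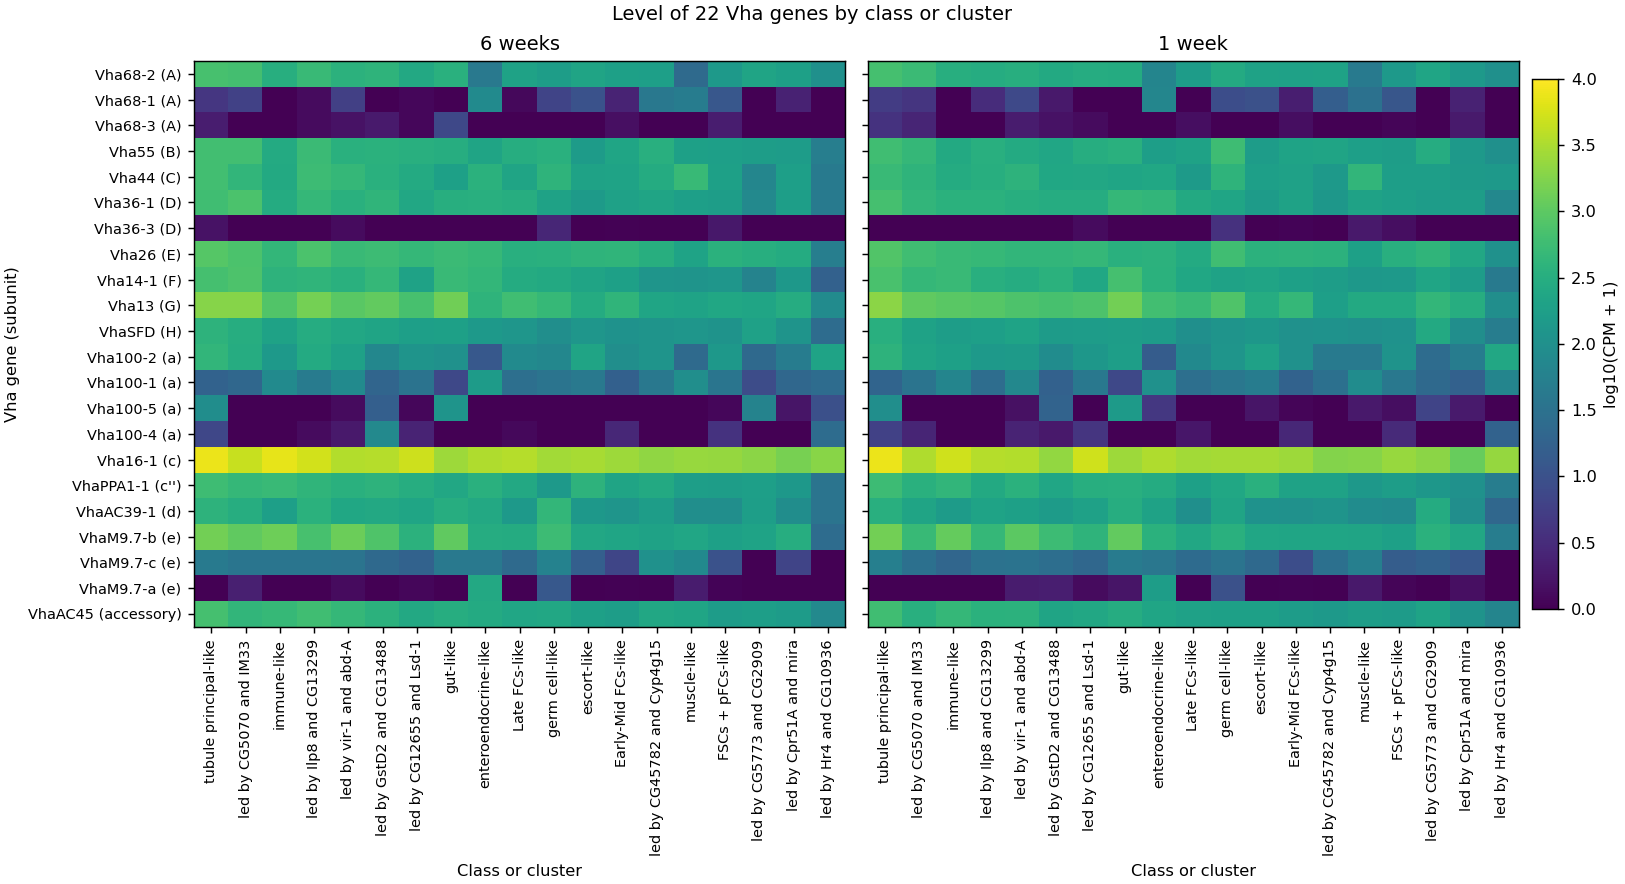
Level of the 22 Vha genes with at least 30 UMIs, as log10(CPM + 1), in 19 classes and clusters, at 6 weeks (left) and at 1 week (right). Rows are genes with their subunit, columns are ordered by the summed Vha level at 6 weeks. Vha16-1 is the brightest row throughout, while Vha68-1, Vha100-4, Vha100-5 and VhaM9.7-a are dark outside a few columns.

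The summed level of the 32 genes differed several-fold between kinds of cells, and the order was led by a non-ovarian class. Tubule principal-like cells had 17501.5 CPM at 6 weeks (104 cells) and 17288 CPM at 1 week (164 cells). This was 3.24 and 3.23 times the level of Early-Mid FCs-like cells, the largest class, which had 5398 CPM in 5410 cells at 6 weeks and 5353 CPM in 5161 cells at 1 week. In the tubule class, Vha16-1 reached 7574 CPM at 6 weeks and 7556 CPM at 1 week, Vha13 1865 and 2004 CPM, and VhaM9.7-b 1399 and 1390 CPM. All 15 broad genes except Vha100-1 were higher there than over all cells at both ages, and Vha100-1 had 16.9 CPM at 6 weeks and 18.7 CPM at 1 week. Doublets were called by the highest scores up to a quota fixed beforehand, 8.09% of all cells at 6 weeks and 13.3% at 1 week. This quota took 9.62% of the tubule cells at 6 weeks and 30.5% at 1 week. Without the called doublets, the ratio to Early-Mid FCs-like cells at 6 weeks was 3.38.

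Several smaller groups also stood above the named follicle classes. Immune-like cells, which carried the hemocyte genes Hml and NimC1, had 12871 CPM at 6 weeks (18 cells) and 11054 CPM at 1 week (53 cells), with Vha16-1 at 7106 and 5231 CPM. The cluster led by CG5070 and IM33 had 13413 CPM in 24 cells at 6 weeks and 9062 CPM in 53 cells at 1 week. In both of these small groups a large share of cells fell in the doublet quota, 16.7% and 18.9% in immune-like cells and 41.7% and 35.8% in the CG5070 cluster. The cluster led by Ilp8 and CG13299 had 12741 CPM (399 cells) and 8300 CPM (116 cells). Nox, a marker of mature follicle cells, was among its leading genes. Cp15 and Cp36 of the Late FCs list were raised there, as were srp and atilla of the immune list. Whether this cluster belongs to the follicle lineage was not tested. The clusters led by vir-1 and abd-A (9689 and 8550 CPM), GstD2 and CG13488 (9464 and 6214 CPM) and CG12655 and Lsd-1 (8949 and 9299 CPM) followed, with gut-like cells at 8535 and 8913 CPM and enteroendocrine-like cells at 7477 and 7142 CPM.

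Among the named follicle classes the summed level was lowest in the FSCs + pFCs-like cells, with 4616 CPM at 6 weeks and 4670 CPM at 1 week. Their 4 clusters ran between 2844 and 5964 CPM at 6 weeks and between 3060 and 5473 CPM at 1 week. The largest, with zfh1 and cas raised, was the highest and lay above the Early-Mid FCs-like level at both ages. The lowest, led by CadN and tutl, had 13.1% and 13.5% of mitochondrial UMIs. The unnamed Hr4 cluster, with eya, br and Nep1 raised, had 2817 and 3582 CPM. Late FCs-like cells, which make the vitelline membrane, had 6988 CPM at 6 weeks and 5521 CPM at 1 week. The 9 clusters of the Early-Mid FCs-like class were not uniform. They ran between 4058 and 7607 CPM at 6 weeks and between 3913 and 7898 CPM at 1 week, and at 1 week the lowest was the cluster led by mitosis genes such as polo and fzy. Escort-like cells, the somatic cells that surround early germline cysts, had 5984 CPM at 6 weeks and 5702 CPM at 1 week, germ cell-like cells 6606 and 7222 CPM, and muscle-like cells 4933 and 4251 CPM. Cells within a class spread widely. The 10th and 90th percentiles of the cells' own levels in the Early-Mid FCs-like class were 3184 and 7383 CPM at 6 weeks and 3122 and 7534 CPM at 1 week. The totals used as denominators bear on the fold between classes, since with the 50 most abundant genes left out the tubule level at 6 weeks was 2.46 times that of Early-Mid FCs-like cells.

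**Figure D2:**
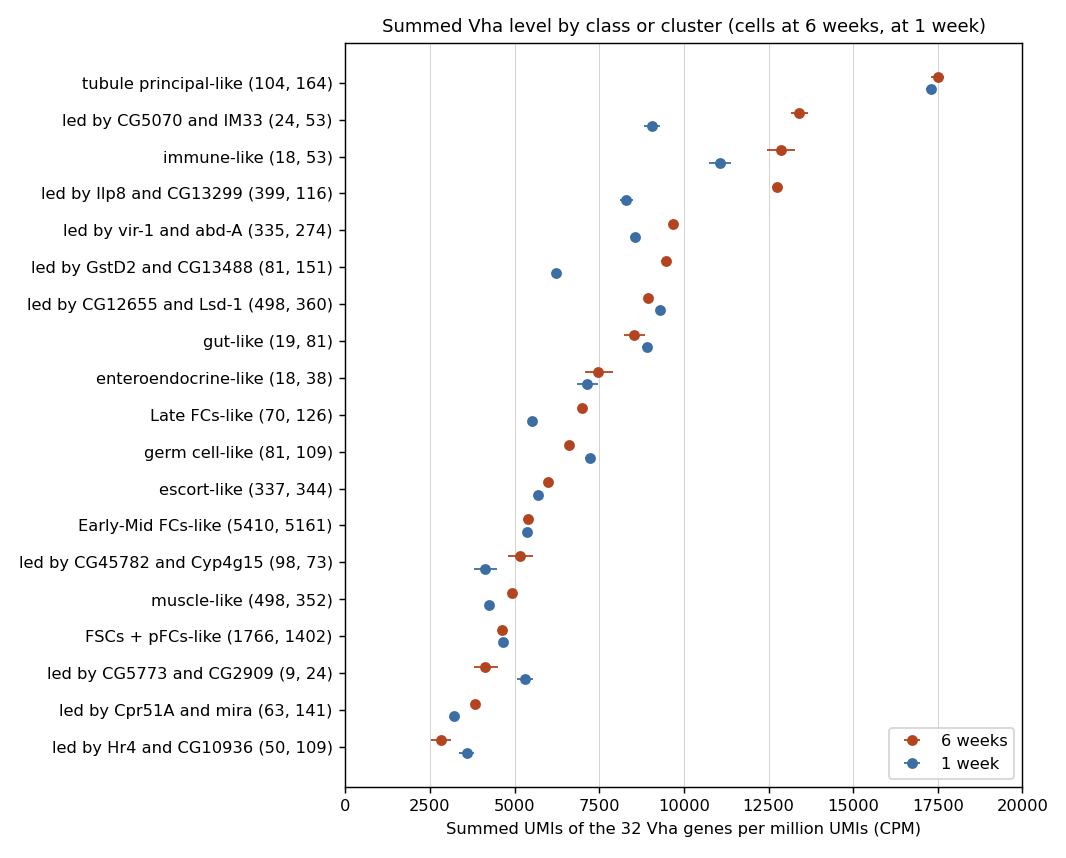
Summed level of the 32 Vha genes in CPM for each class or cluster, with the 6-week library in red above the 1-week library in blue, and numbers of cells at 6 weeks and 1 week in brackets. Points are UMIs summed over all cells of the group and bars exact 95% Poisson intervals. Tubule principal-like cells are highest at both ages (17501.5 and 17288 CPM), and the cluster led by Hr4 and CG10936 is lowest at 6 weeks (2817 CPM).

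Most of the broad genes were high and low together. Over the 26 clusters large enough at both ages, the Pearson correlation of a gene's log2(CPM + 1) with the summed level of the other broad genes was between 0.69 and 0.94 for 13 of the 15 genes at both ages. The exceptions were the 2 broad copies of subunit a, Vha100-2 (0.14 at 6 weeks and 0.17 at 1 week) and Vha100-1 (0.18 and -0.07). These values are a description, since clusters of 1 library share its depth and preparation. Among restricted genes, VhaM9.7-c was most like the broad set (0.68 and 0.63), and Vha68-1 was near 0 (-0.06 and -0.02). The tandem neighbours had correlations of 0.28 at 6 weeks and 0.63 at 1 week between Vha100-4 and Vha100-2, and of 0.22 and 0.40 between Vha68-3 and Vha68-2. The first value includes 1 aged cell, described below, that held 143 of 408 Vha100-4 UMIs and no Vha100-2 UMI.

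The makeup of the Vha UMIs also differed between classes. These are shares of RNA, and the proportions of subunits in assembled pumps were not measured. Vha16-1 gave 30.4% of the Vha UMIs at 6 weeks and 28.9% at 1 week in gut-like cells, and 70.1% and 66.1% in the cluster led by Hr4 and CG10936. Vha13 gave 15.8% at both ages in gut-like cells, and 2.96% and 2.59% in the Hr4 cluster. Subunits A, a and e differed in which gene copy was present. In muscle-like cells, marked by Mhc, Mlc1 and wupA, Vha68-1 gave 67.1% of the subunit A UMIs at 6 weeks (interval 58.7% to 74.8%, 94 of 140 UMIs) and 41.0% at 1 week (30.3% to 52.3%, 34 of 83 UMIs). In Early-Mid FCs-like cells it gave 0.816% and 0.620%, and in FSCs + pFCs-like cells 7.29% and 7.11%. Its level in muscle-like cells was 46.6 CPM at 6 weeks and 30.1 CPM at 1 week, while that of Vha68-2 was 22.8 and 43.4 CPM, far below its 208 and 209 CPM over all cells. Subunit a showed the same kind of shift. Vha100-1, known for its work at synaptic vesicles in neurons, gave 80.0% of subunit a UMIs in muscle-like cells at 6 weeks and 66.2% at 1 week, against 14.1% and 14.0% in Early-Mid FCs-like cells. VhaM9.7-c gave 25% and 19.9% of subunit e in muscle-like cells, against 2.54% and 3.31% in Early-Mid FCs-like cells. Vha44, the only gene of subunit C, was also raised in muscle-like cells, with 502 CPM at 6 weeks and 427 CPM at 1 week and 10.2% and 10.1% of their Vha UMIs, where in Early-Mid FCs-like cells it had 208 and 196 CPM.

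The shares of Vha68-1 and Vha100-1 in muscle-like cells were higher at 6 weeks, but both shares moved with the processing. Under the alternatives the Vha100-1 share lay between 69.8% and 86.3% at 6 weeks and between 58.2% and 75.3% at 1 week, so the 2 ranges overlapped. The size of the age difference of Vha68-1 was not stable either. With both libraries clustered together, the Vha68-1 share in muscle-like cells was 47.8% at 6 weeks and 36.2% at 1 week, and with each cell thinned to 1000 UMIs it was 63.2% and 60%. The mitochondrial share of UMIs in this class was 5.87% at 6 weeks and 11.5% at 1 week. With only cells of up to 10% mitochondrial UMIs kept, the Vha68-1 share was 70.3% at 6 weeks and 34.4% at 1 week, and with no limit it was 65.8% and 39.5%.

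Enteroendocrine-like cells, marked by AstA, AstC and Tk, used another set of copies. VhaM9.7-a, which had 255 CPM there at 6 weeks and 165 CPM at 1 week, gave 43.1% (interval 33.4% to 53.3%) and 29.4% (22.6% to 37.1%) of subunit e. The 18 cells at 6 weeks held 44 of the 76 UMIs of this gene over all cells, and the 38 cells at 1 week held 48 of 74. Vha68-1 gave 66.7% of subunit A (14 of 21 UMIs) and 51.3% (20 of 39), and Vha100-1 gave 93.1% of subunit a (27 of 29 UMIs) and 86.1% (31 of 36). The broad copies Vha100-2 (11.6 and 13.7 CPM) and Vha68-2 (40.6 and 65.2 CPM) were correspondingly low, on few UMIs. The class also carried the neuronal genes elav, nSyb and brp. The doublet quota took 11.1% of its cells at 6 weeks and 34.2% at 1 week. Without the called doublets the Vha68-1 share was 70% at 6 weeks and 53.6% at 1 week. The 7 restricted copies made up 5.04% of the Vha UMIs of this class at 6 weeks and 3.84% at 1 week, the highest share of any class at both ages.

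Vha100-5 was highest in the gut and tubule classes and was also present in 2 unnamed clusters with gut markers. It gave 51.4% of subunit a in gut-like cells at 6 weeks (interval 39.3% to 63.4%, 37 of 72 UMIs) and 45.1% at 1 week (40.5% to 49.7%, 214 of 475 UMIs), with levels of 115 and 150 CPM. In tubule principal-like cells it gave 16.4% (14.2% to 18.9%) and 18.5% (16.6% to 20.5%), with 89.3 and 92.6 CPM. In the cluster led by GstD2 and CG13488 it gave 8.66% at 6 weeks (33 of 381 UMIs) and 14.2% at 1 week (60 of 422 UMIs), and 13.9% at 6 weeks without the 1 cell described below. In the cluster led by CG5773 and CG2909 it gave 8 of 12 and 2 of 19 UMIs, in 9 and 24 cells. Early-Mid FCs-like cells had 0.00929 and 0.131 CPM. At least 1 UMI of Vha100-5 was found in 31.7% of tubule principal-like cells at 6 weeks and 32.3% at 1 week, but in 0.0185% and 0.194% of Early-Mid FCs-like cells, although their median depths of 18222.5 and 14074 UMIs were above the 13240 and 13405.5 UMIs of the tubule class. With cells thinned to 1000 UMIs the shares were 6.73% and 4.88% in tubule principal-like cells and 0 of 5410 cells, with an exact upper limit of 0.0682%, and 0.0388% in Early-Mid FCs-like cells. The share in gut-like cells at 6 weeks rests on 19 cells and was 16.5% with both libraries clustered together.

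In germ cell-like cells, marked by vas, nos and osk, Vha100-2 and Vha68-2 were the main copies. Vha100-2 gave 67.2% of subunit a at 6 weeks and 75.8% at 1 week, with Vha100-1 giving the rest, and Vha68-1 gave 3.32% and 2.80% of subunit A. VhaM9.7-a had 11.4 and 8.86 CPM, or 1.81% and 2.31% of subunit e. These shares depended on a few deep cells. Without the 7 aged and 3 young cells that each held over 5% of the UMIs or Vha UMIs of the class, VhaM9.7-a gave 7.04% at 6 weeks (20 of 284 UMIs) and 2.94% at 1 week (10 of 340 UMIs), and Vha68-1 gave 6.02% and 3.91% of subunit A. Vha36-3, a copy of subunit D, had 3 UMIs at each age among 354 and 257 subunit D UMIs. No UMI of Vha68-1 was found in gut-like cells, among 112 subunit A UMIs at 6 weeks and 414 at 1 week (exact upper limits 3.24% and 0.887%).

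**Figure D3:**
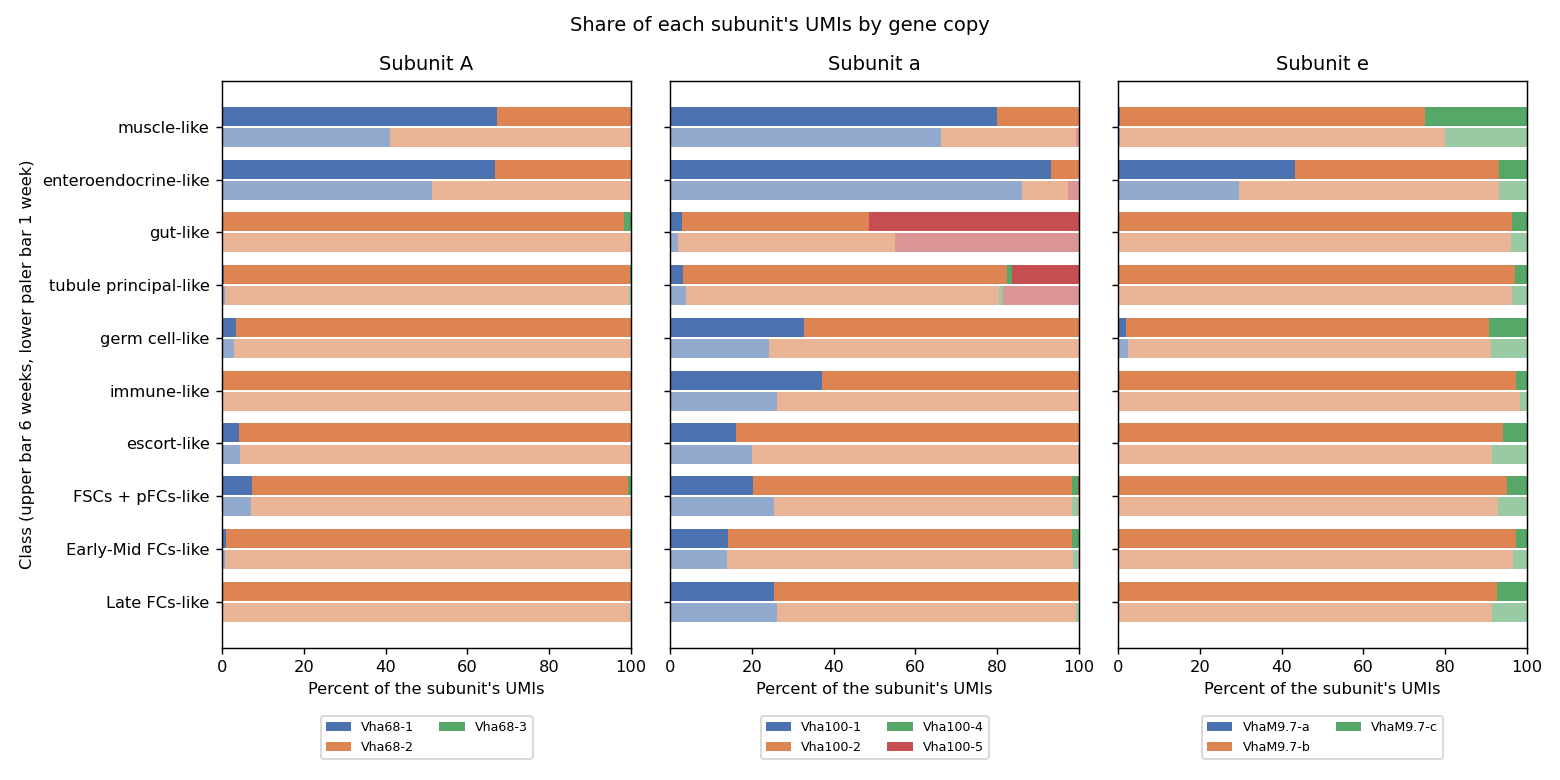
Share of the UMIs of subunits A, a and e given by each gene copy in 10 classes, with the upper bar of each pair for 6 weeks and the lower, paler bar for 1 week. Vha68-1 and Vha100-1 fill most of the bars of muscle-like and enteroendocrine-like cells at 6 weeks, Vha100-5 a large part of those of gut-like cells (51.4% and 45.1%), and VhaM9.7-a gives a large part only in enteroendocrine-like cells (43.1% and 29.4%).

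A single aged cell, singled out after its values had been seen, held more Vha100-4 UMIs than any other cell at 6 weeks. This cell, in the cluster led by GstD2 and CG13488, held 143 of the 408 Vha100-4 UMIs of all 6-week cells. They were all of its subunit a UMIs (interval 97.5% to 100%). It had 79600 UMIs, 4000 genes and a mitochondrial share of 18.2%, and 7543 of its UMIs were from Vha genes, or 94761 CPM. The other subunits were high as well, with 3249 UMIs of Vha16-1, 858 of Vha13, 578 of VhaM9.7-b and 304 of Vha68-2. It also had 21 UMIs of lab, a homeobox gene of midgut copper cells, 137 of the carbonic anhydrase gene CAH1 and 67 of the gut gene mex1. The second cell by this count, also at 6 weeks and in the same cluster, had 16 Vha100-4 UMIs, again all of its subunit a UMIs, and 20655 CPM of Vha genes, but no lab UMI. Early-Mid FCs-like cells, as the largest class, held more of this gene in sum, 191 UMIs at 6 weeks and 147 at 1 week, where it gave 1.60% and 1.43% of subunit a.

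Between ages, the Vha genes differed little over all cells. The summed level was 6066 CPM at 6 weeks and 5899 CPM at 1 week, a log2 ratio of 0.04 for 6 weeks over 1 week. V1 genes had 2149 and 2130 CPM (log2 ratio 0.01) and V0 genes 3917 and 3770 CPM (0.06). In such sums the share of a cell type and its level per cell cannot be told apart. Of the 22 genes with at least 30 UMIs, 1 was higher by at least 1.5-fold, where 5.39% of all 10056 genes were, and 1 was lower by as much, where 10.3% of all genes were. The median log2 ratio was 0.02 over the Vha genes and -0.01 over all genes. The gene past 1.5-fold upwards was Vha100-4 (log2 ratio 0.68, interval 0.44 to 0.93), and without the single cell described above its ratio was 0.06 (-0.21 to 0.33).

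The gene past 1.5-fold downwards was Vha100-5, with a log2 ratio of -1.57 (interval -1.79 to -1.35). It had 249 UMIs at 6 weeks and 593 at 1 week. Fewer gut-like and tubule principal-like cells were recovered from the aged ovaries, 0.192% and 1.05% of all cells at 6 weeks against 0.887% and 1.80% at 1 week. Within tubule principal-like cells the log2 ratio was -0.05 (-0.34 to 0.23). Within gut-like cells, 19 at 6 weeks and 81 at 1 week, the level of the gene was lower at 6 weeks, as given above. The part of these cell numbers in the ratio over all cells was not tested. With each cell thinned to 1000 UMIs, which removes the weight of deep cells, the ratio over all cells was -0.53. After thinning, the gene was found in only 15 of 9878 cells at 6 weeks and 22 of 9131 at 1 week. The counting error of this ratio is therefore large. After Vha100-4, the highest ratios among genes with at least 200 UMIs were those of Vha68-1 (0.28, interval 0.07 to 0.50), VhaAC39-1 (0.23), Vha44 (0.16) and VhaAC45 (0.12). After Vha100-5, the lowest were those of VhaM9.7-c (-0.24), Vha13 (-0.10), Vha36-1 (-0.08) and Vha14-1 (-0.07).

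**Figure D4:**
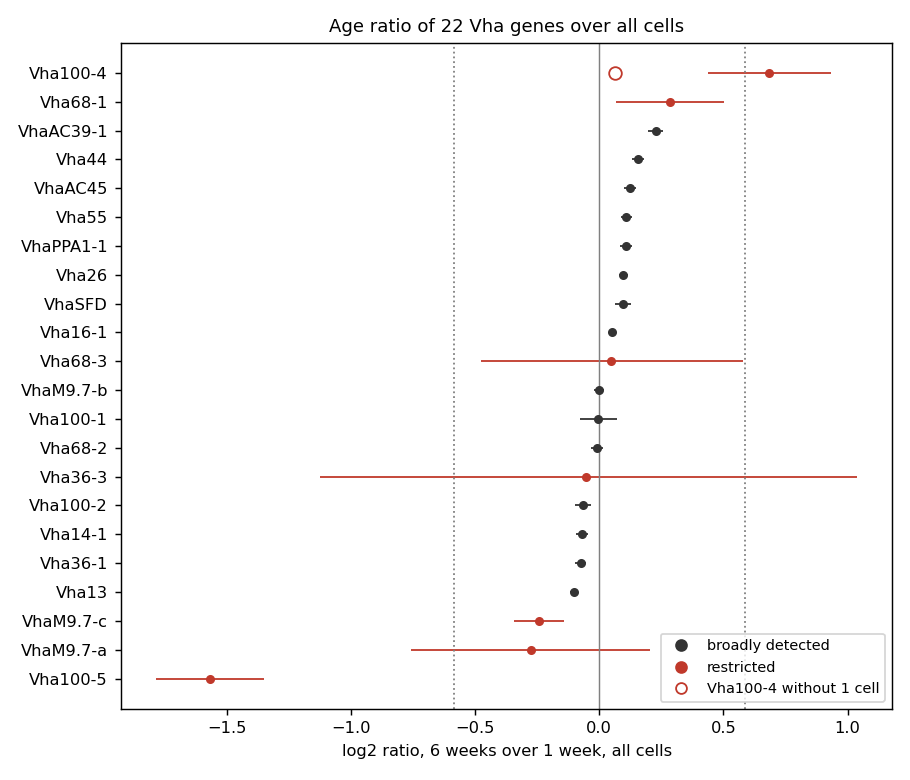
Log2 ratio of each of 22 Vha genes for 6 weeks over 1 week, over all cells, with exact 95% binomial intervals. Black points are broadly detected genes, red points restricted ones, the open circle is Vha100-4 without 1 cell (0.06), and dotted lines mark 1.5-fold. All broad genes lie between -0.10 (Vha13) and 0.23 (VhaAC39-1), and Vha100-5 lies far to the left (-1.57).

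Among the named classes, Late FCs-like cells had the largest age ratio of the summed level. Their summed Vha level was 6988 CPM at 6 weeks (70 cells) and 5521 CPM at 1 week (126 cells), a log2 ratio of 0.34 (interval 0.32 to 0.36), and it lay between 0.30 and 0.51 under all alternatives. V1 and V0 genes were higher alike (0.32 and 0.35). Vha55 had 307 CPM at 6 weeks and 201 CPM at 1 week (log2 ratio 0.61), VhaAC39-1 147 and 96.5 CPM (0.61), and Vha16-1 3559 and 2756 CPM (0.37). Of the 15 broad genes, 14 had a ratio above 0 in this class, and Vha100-1 did not (-0.01), where 61.6% of all 5777 genes tested there were above 0. The median of all genes in these cells was also above 0 (0.12). The median depths of the cells were 70549.5 UMIs at 6 weeks and 45650.5 UMIs at 1 week. The part of this depth difference in the ratio was not tested. Thinning the cells to equal depth gave 0.51. It weights cells equally but leaves the expected CPM of each cell unchanged, so it cannot show this part.

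In the cluster led by vir-1 and abd-A the log2 ratio was 0.18 (interval 0.15 to 0.21), against a median of -0.07 over all genes there, and it lay between 0.13 and 0.25 under the alternatives. Of the 15 broad genes, 14 had a ratio above 0 in this cluster, where 41.4% of all 6075 genes tested there did. Its median depths were 4993 UMIs at 6 weeks and 4851.5 UMIs at 1 week. In muscle-like cells the summed ratio was 0.21 (0.16 to 0.26), with V0 genes at 0.32 and V1 genes at 0.02. The median over all genes there was 0.09, and the summed ratio lay between 0.10 and 0.30 under the alternatives. It was 0.17 without 1 aged cell that held 6.44% of the aged Vha UMIs of the class, and 0.09 with Vha16-1 left out of the sum. In muscle-like cells, Vha68-2 (log2 ratio -0.93), Vha100-2 (-0.90) and Vha13 (-0.35) were lower at 6 weeks, while Vha44 (0.23), Vha16-1 (0.36), VhaPPA1-1 (0.40), VhaAC45 (0.39), VhaM9.7-c (0.53) and Vha68-1 (0.63) were higher, all with intervals on 1 side of 0. Escort-like cells had a ratio of 0.07 (0.03 to 0.11). The largest classes scarcely differed, with 0.01 in Early-Mid FCs-like cells and -0.02 in FSCs + pFCs-like cells. Tubule principal-like cells had 0.02, and 0.11 without 1 young cell that held 9.12% of their Vha UMIs.

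Some age ratios rested on a few cells. In the cluster led by Ilp8 and CG13299 the summed log2 ratio was 0.62 (interval 0.58 to 0.65), and 11 of its 16 Vha genes with at least 30 UMIs were higher by at least 1.5-fold, where 34.2% of all genes there were. Its deepest 3 cells at 1 week had 109038, 67919 and 57423 UMIs and only 1174, 1605 and 1324 CPM of Vha genes. Without the 4 young cells of this cluster that held over 5% of its UMIs or Vha UMIs, the ratio was 0.28 (0.24 to 0.32), and 1 of 16 Vha genes was higher by at least 1.5-fold, where 11.7% of all genes were. The mean of the cells' own levels gave 11315 CPM at 6 weeks and 10208 CPM at 1 week, a log2 ratio of 0.15. The lowest ratio among the alternatives, 0.0488, came with Vha and other listed genes allowed for clustering, where the Vha median exceeded that of all genes by 0.0350. In the cluster led by GstD2 and CG13488 the ratio was 0.61 and 8 of 18 Vha genes were higher by at least 1.5-fold, where 8.22% of all genes were. Without the Vha100-4 cell, which held 37.4% of the cluster's aged Vha UMIs, the level was 6157 CPM at 6 weeks and 6214 CPM at 1 week, the ratio was -0.01, and 0 of 17 Vha genes were higher by as much, where 7.9% of all genes were.

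In germ cell-like cells the summed level was lower at 6 weeks, with a log2 ratio of -0.13 (interval -0.17 to -0.09). Its 81 aged cells were dominated by a few. A single aged cell of 153360 UMIs held 26.0% of their Vha UMIs, and without the same 7 aged and 3 young cells as above the levels were 4620 CPM at 6 weeks and 6052 CPM at 1 week, a ratio of -0.39 (-0.45 to -0.33). V1 genes were lower with all cells (2297 CPM at 6 weeks and 3165 CPM at 1 week, log2 ratio -0.46) and without these cells (-0.53). V0 genes were slightly higher with all cells (4309 and 4058 CPM, 0.09) and lower without these cells (-0.29). Vha26 had 342 CPM at 6 weeks and 588 CPM at 1 week with all cells (-0.78), and -0.58 without these cells. Vha13 gave -0.73 and -0.66 in the same order, and Vha55 -0.69 and -0.51. VhaAC39-1 had a ratio of 1.04 with all cells, but -0.01 without them, and VhaM9.7-b had 0.72 and -0.44.

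**Figure D5:**
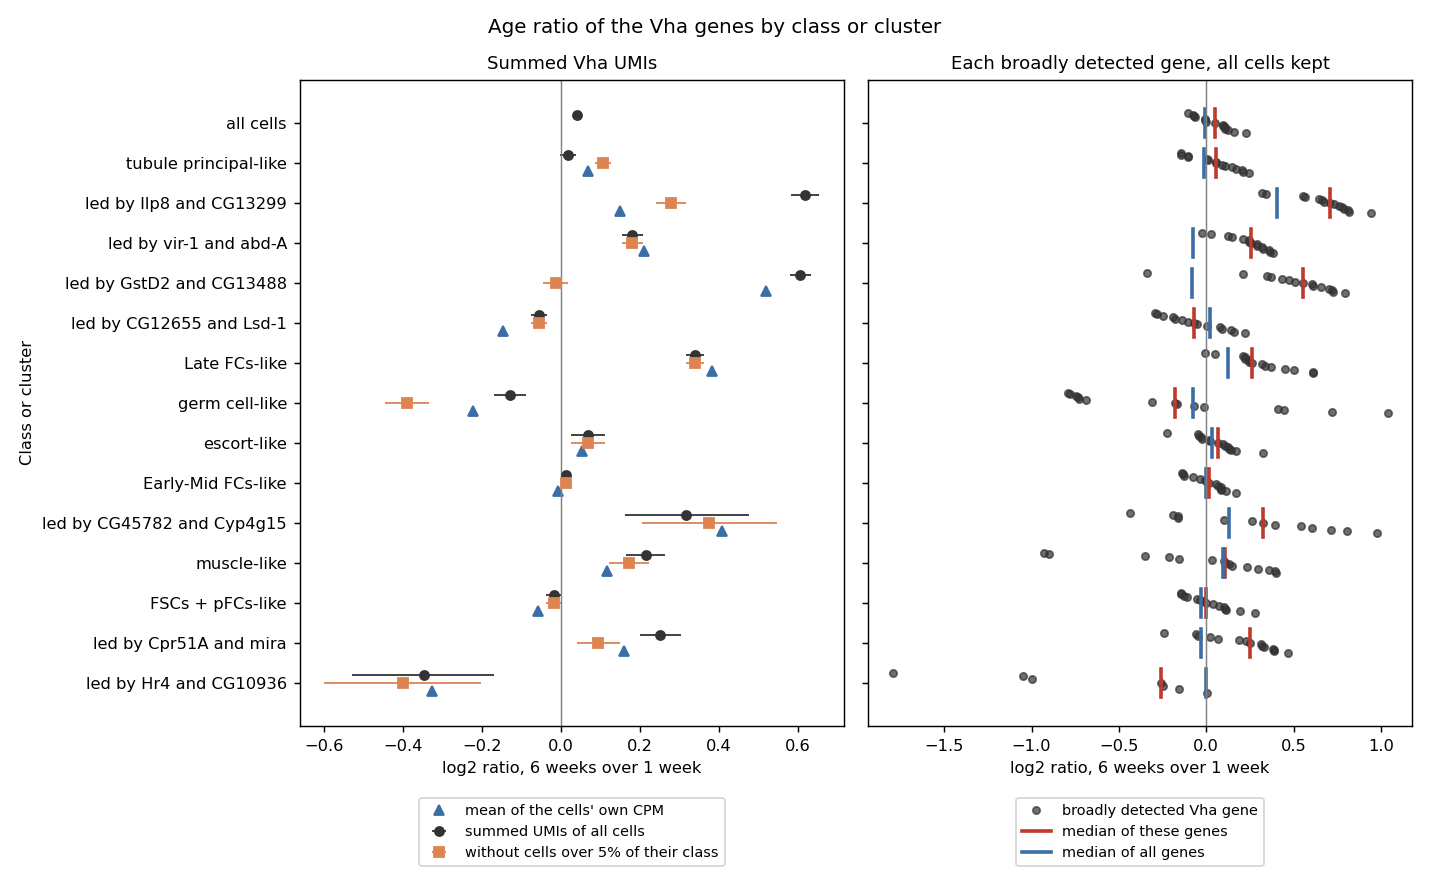
Log2 ratios for 6 weeks over 1 week in all cells and in 14 classes and clusters. At left, the ratio of summed Vha UMIs from all cells of the group (circles), without cells that held over 5% of the UMIs or Vha UMIs of the group (squares, both with exact 95% intervals) and from the mean of the cells' own levels (triangles), where the 3 estimates part in the clusters led by Ilp8 and GstD2 and in germ cell-like cells. At right, each broadly detected gene with at least 30 UMIs, with its median in red and that of all genes in blue.

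Genes that work with the pump differed as little over all cells. The list held 38 genes, of which 36 were found and 35 had at least 30 UMIs, and their median log2 ratio was 0.05. By at least 1.5-fold, 1 gene was higher, where 5.39% of all 10056 genes were, and 1 was lower, where 10.3% were. The list and its parts are too short for such counts to be set apart from these shares. None of the 7 genes for assembly and regulation passed 1.5-fold. ATP6AP2, an accessory protein of the pump, had 201 CPM at 6 weeks and 183 CPM at 1 week, and Rbcn-3A and Rbcn-3B, subunits of the complex that reassembles V1 with V0, had 12.8 and 13.1 CPM and 13.5 and 14.1 CPM. Among 14 lysosomal genes the median was 0.10, the cathepsin gene Cp1 had 781 CPM at 6 weeks and 612 CPM at 1 week (0.35), and the glucocerebrosidase gene Gba1a, on 29 and 84 UMIs, was lower (-1.85). Of 10 exchangers, chloride transporters and carbonic anhydrases, Nha1, a sodium/proton antiporter, was higher (log2 ratio 1.76, 1456 and 346 UMIs). It was 1 of the leading genes of the Ilp8 cluster, which made up 4.04% of the cells at 6 weeks and 1.27% at 1 week, and its level within that cluster was 411 and 255 CPM. The 4 young cells described above held 29.3% of the young UMIs of that cluster. The median log2 ratio of all genes there was 0.40 with these cells and 0.02 without them, and the Nha1 level without them was not computed. The autophagy gene Atg8a had 784 CPM at 6 weeks and 723 CPM at 1 week (0.12).

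In muscle-like cells, 28 of the listed genes had at least 30 UMIs, with a median log2 ratio of 0.34, against 0.09 over all 5499 genes tested there. By at least 1.5-fold, 5 of them were higher, where 10.8% of all genes were, and 1 was lower, where 6.18% were. The mitochondrial share of this class also differed between ages, and its part in these ratios was not tested. Among the 28 genes, the 3 highest age ratios were those of lysosomal genes. The lysosomal efflux permease gene spin had 176 CPM at 6 weeks and 96.6 CPM at 1 week (log2 ratio 0.86, interval 0.55 to 1.19), the sterol transport gene Npc2a 180.4 and 103 CPM (0.81, 0.51 to 1.12), and CG12163, a cathepsin F gene, 224 and 134 CPM (0.74, 0.47 to 1.02). CAH1 had the lowest ratio among these genes (-1.53, on 21 and 34 UMIs).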

How the data were processed

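Single-cell RNA sequencing was done on ovaries of w1118(x);; flies at 6 weeks and 1 week, with 1 library per age. Per the labels both libraries were made with the same version of a 10x Genomics 3′ kit, whereas the study's methods name 2 versions and its supplement mentions replicates, which the labels do not mark. Whether the ages differed in kit or held pooled replicates could therefore not be settled, and each age was treated as 1 library. The authors aligned reads and counted UMIs with Cell Ranger 9.0.0 on the build BDGP6, as the submitters' processing notes give it. The deposited values are raw UMI counts of each gene in each barcode as the authors' counting gave them, and no barcode had under 500 UMIs. The members and lists were chosen with earlier results of these data known.

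Barcodes with under 500 genes, under 1000 UMIs or over 20% of mitochondrial UMIs were left out. The 1-week cells were clustered (2000 variable genes without Vha genes, 30 principal components, 20 neighbours, Leiden resolution 1), clusters with gut and tubule markers were clustered once more at resolution 0.5, and each 6-week cell was placed by a vote of its 30 nearest neighbours among 1-week cells. A class name needed at least 3 markers raised 2-fold and present in 10% of cells, and these thresholds were set after clusters had been seen. Doublets were left in. As an alternative, the cells with the highest Scrublet-like scores were removed, 799 aged cells (8.09%) and 1217 young cells (13.3%). These shares were fixed beforehand from the number of all barcodes in each library, so their difference between ages was set by the rule.

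UMIs were summed per class and library and divided by all UMIs of these cells (CPM). CPM have exact Poisson, log2 ratios and shares exact binomial 95% intervals, which cover counting error only. Lists took genes that reached 30 UMIs in the sum of both libraries, and a gene was called past 1.5-fold. Values were named for the most abundant copy of each subunit, for restricted copies, and for the 5 highest and 5 lowest log2 ratios among members that reached 200 UMIs. Positions were looked up by identifier on BDGP6.54 (31 of 32 members, with Vha44 by symbol). Alternatives covered cell filters, clustering, doublets, totals, thinning and, added after the data were seen, leaving out dominant cells. The calculations were tested on simulated data. Python 3.11.15, scipy 1.17.1 and leidenalg 0.10.2 were used.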

Additional observations from a re-analysis of the deposited data

Results flagged for a closer look

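The age ratio of the summed Vha level ran in opposite directions between classes and clusters with at least 50 cells in both libraries, as judged by counting intervals only, and with 1 library per age this difference between classes was not tested. The log2 ratio (6 weeks over 1 week) was above 0 in 9 groups, with 0.0123 in Early-Mid FCs-like cells, 0.21 in muscle-like cells, 0.0694 in escort-like cells, 0.34 in Late FCs-like cells, 0.18 in the cluster led by vir-1 and abd-A, 0.61 in that led by GstD2 and CG13488, 0.25 in that led by Cpr51A and mira, 0.62 in that led by Ilp8 and CG13299 and 0.32 in that led by CG45782 and Cyp4g15. It was below 0 in 3 groups, with -0.13 in germ cell-like cells, -0.0555 in the cluster led by CG12655 and Lsd-1 and -0.35 in that led by Hr4 and CG10936. Some of these directions turned under alternatives. The ratio of Early-Mid FCs-like cells was below 0 under 4 of 14, down to -0.0144 with thinned cells, that of the CG45782 cluster was -0.10 with at least 1000 genes per cell, and that of the CG12655 cluster was above 0 under 3 of 14, up to 0.35 at Leiden resolution 0.5. In tubule principal-like and FSCs + pFCs-like cells the interval crossed 0. Without cells that held over 5% of their group, the ratio was -0.01 in the GstD2 cluster, 0.28 in the Ilp8 cluster and 0.09 in the Cpr51A cluster.

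Vha UMIs were also present in the barcodes left out by the filters on cells, which no comparison used. Their summed level was 3373 CPM at 6 weeks over 10346 barcodes and 3470 CPM at 1 week over 24186 barcodes, below the 6066 and 5899 CPM of the cells kept.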

How the results depend on the processing

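No paired analysis was possible because each age had 1 library and the labels give no replicate numbers. The summed log2 ratio over all cells (0.04) kept its direction. It was 0.0489 with no limit on the mitochondrial share, 0.0608 without doublets, 0.0214 with mitochondrial UMIs and 0.0239 with the 50 most abundant genes left out of the totals, 0.0267 as a mean over cells, 0.0234 with cells thinned to 1000 UMIs, 0.0287 without the aged cell richest in Vha100-4 and 0.0345 without cells over 5% of their class, the last 2 alternatives being chosen after the data were seen. The tubule level over that of Early-Mid FCs-like cells at 6 weeks (3.24-fold) was 3.30 with no mitochondrial limit, 3.38 without doublets, 3.09 with both libraries clustered together, 3.14 with Vha genes allowed for clustering, 2.46 without the 50 most abundant genes, 3.69 as a mean over cells and 3.59 after thinning. The number of Vha genes past 1.5-fold, 2 in the analysis reported, was 1 with no mitochondrial limit, 1 with a limit of 10%, 1 as a mean over cells, 1 after thinning, 1 at 2-fold, 1 without the Vha100-4 cell and 1 without cells over 5% of their class. The Vha68-1 share of subunit A in muscle-like cells at 6 weeks (67.1%) was 47.8% with joint clustering. The age ratio of the GstD2 cluster (0.61) was -0.0320 with the 10% limit, -0.0461 with joint clustering, and -0.0134 without the Vha100-4 cell or without cells over 5% of their class, and its Vha median less that of all genes (0.61) was -0.00735 with joint clustering. The cause of the other shifts was not tested. Of 1331 further values over 98 results and 19 settings, 888 stayed within their counting interval (counts within 1.5 times), 438 moved beyond it, and 5 were the values past 1.5-fold in the GstD2 cluster that turned direction, given above. Smaller age ratios, not counted as such, also changed sign: 4 of 14 times in Early-Mid FCs-like and in tubule principal-like cells, 3 of 14 in the CG12655 cluster and among FSCs + pFCs-like cells, 5 of 13 in gut-like cells, 2 of 10 in the CG5773 cluster, and 1 time each in the CG45782 cluster and in enteroendocrine-like cells. The clusters led by CG5773 and by Cpr51A were lost under other clusterings, and gut-like cells and the clusters led by CG45782, Hr4 and Ilp8 at resolution 0.5. Depth limits the restricted copies, with 33 UMIs of Vha36-3 in all.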
